A study of Mus musculus with 6 samples.

Results

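The genes that bring pyruvate into mitochondria and run the tricarboxylic acid (TCA) cycle were followed in mouse small-intestinal organoids, crypt-derived epithelial cultures. The genes were chosen by name as a list of 30 enzymes, regulators and carrier subunits, and all 30 were found among the 53953 rows of each library. Organoids from proximal small intestine of C57BL/6 wt mice, at passage 3 to 5 in Matrigel, were given arachidonic acid, an omega-6 fatty acid, for 3 days and then passaged (3 libraries). Vehicle organoids of the same source received ethanol for 3 days (3 libraries). Ethanol was at 0.1% in both groups, and RNA was taken on day 3 after passaging in both. The sources used here state neither the dose of the fatty acid nor whether replicates are separate mice or cultures. The p-values below therefore cover only the variation among these 6 libraries, which may be technical.

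Pyruvate made by glycolysis enters the mitochondrion through a carrier of 2 subunits, MPC1 and MPC2. The pyruvate dehydrogenase (PDH) complex turns it into acetyl-CoA, and is switched off by PDH kinases and on by PDH phosphatases, while pyruvate carboxylase makes oxaloacetate from it instead. The TCA cycle oxidises acetyl-CoA, and malate, malic enzymes and aspartate aminotransferases link the cycle to the cytosol. In mouse intestinal crypts, loss of the pyruvate carrier is known to raise the proliferation of stem cells.

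Values are FPKM, fragment counts scaled to gene length and library size, a unit inferred from the deposited values, at an implied depth of about 35600000 to 50800000 fragments with arachidonic acid and 36600000 to 38500000 fragments with vehicle. Over many genes arachidonic acid replicate 1 lay between its group and the vehicle libraries, and the values of each library are therefore given below. Fragments from the mitochondrial genome made up 2.18% to 2.62% with arachidonic acid and 3.12% to 4.10% with vehicle. All 5 epithelial markers were above 1 FPKM in every library, and none of 5 fibroblast, 3 endothelial and 3 smooth muscle markers reached 1 FPKM in any. Of 4 immune markers only Cd68 passed 1 FPKM, at 3.52, 23.9 and 16.8 FPKM with arachidonic acid and 2.14, 2.02 and 1.53 FPKM with vehicle, while Ptprc, the pan-leukocyte CD45 gene, was at most 0.0474 FPKM in any library. Sums of marker FPKM mostly follow their most abundant genes, and the direction of each marker in a sum is not given. Summed markers of the epithelium stood at 3275 to 3771 FPKM with arachidonic acid and 2234 to 2356 FPKM with vehicle. Summed markers of enterocytes stood at 1706 to 4346 FPKM with arachidonic acid and 605 to 811 FPKM with vehicle. Those of goblet cells stood at 223 to 365 FPKM with arachidonic acid and 762 to 930.5 FPKM with vehicle, and those of Paneth cells at 283 to 494 FPKM with arachidonic acid and 1156 to 1891 FPKM with vehicle. Stem cell markers summed to 227 to 288 FPKM with arachidonic acid and 454 to 527 FPKM with vehicle, and enteroendocrine markers to 50.6 to 84.3 FPKM with arachidonic acid and 279 to 318 FPKM with vehicle. In such bulk libraries fewer cells of a type and less RNA per cell cannot be told apart, and the part of these marker changes in the results below was not tested.

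The sequences before the start sites of 4 members whose messages rose are shown, pyruvate carboxylase (Pcx), citrate synthase (Cs) and both aspartate aminotransferases (Got1, Got2). They hold the tested member with the largest change, the entry enzyme of the cycle and a pair of partner enzymes that both rose. Each is the 250 bases upstream of a RefSeq start (GRCm38.p6), and capitals mark CCAAT or its reverse complement ATTGG, the core of the CCAAT box found in many promoters.
Pcx first start, chr19:4510222-4510471, plus strand: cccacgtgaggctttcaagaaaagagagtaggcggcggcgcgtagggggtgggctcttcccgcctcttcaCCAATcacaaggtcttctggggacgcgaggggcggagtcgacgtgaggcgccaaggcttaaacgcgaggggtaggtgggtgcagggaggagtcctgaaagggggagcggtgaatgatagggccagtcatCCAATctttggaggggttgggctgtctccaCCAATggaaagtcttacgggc
Pcx second start, chr19:4594069-4594318, plus strand: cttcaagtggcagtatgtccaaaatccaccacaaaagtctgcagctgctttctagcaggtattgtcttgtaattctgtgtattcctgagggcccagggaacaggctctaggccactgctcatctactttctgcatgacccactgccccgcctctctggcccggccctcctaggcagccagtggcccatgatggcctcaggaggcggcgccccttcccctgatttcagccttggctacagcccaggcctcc
Cs, chr10:128337477-128337726, plus strand: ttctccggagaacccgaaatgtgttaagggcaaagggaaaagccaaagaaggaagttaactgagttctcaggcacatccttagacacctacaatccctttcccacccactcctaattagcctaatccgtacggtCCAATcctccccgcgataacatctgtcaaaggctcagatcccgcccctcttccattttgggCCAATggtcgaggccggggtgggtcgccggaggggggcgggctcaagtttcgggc
Got1, chr19:43524606-43524855, minus strand: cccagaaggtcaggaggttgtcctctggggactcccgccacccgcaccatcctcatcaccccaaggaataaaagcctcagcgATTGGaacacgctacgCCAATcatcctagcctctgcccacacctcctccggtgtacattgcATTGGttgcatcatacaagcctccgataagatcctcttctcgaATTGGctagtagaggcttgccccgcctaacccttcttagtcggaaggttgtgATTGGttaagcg
Got2, chr8:95888402-95888651, minus strand: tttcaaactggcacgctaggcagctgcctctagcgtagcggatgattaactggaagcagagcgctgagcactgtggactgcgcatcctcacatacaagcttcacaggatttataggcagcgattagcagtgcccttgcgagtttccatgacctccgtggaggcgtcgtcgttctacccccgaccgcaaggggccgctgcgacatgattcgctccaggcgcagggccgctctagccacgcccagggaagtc
The window of Got1 held 5 matches, a number reached by 0.213% of the 32851 windows of all genes. The first window of Pcx held 3, a number reached by 2.79% of windows, and that of Cs held 2, reached by 10.1%. The second window of Pcx and that of Got2 held none. The GENCODE M21 annotation places the start of Got2 inside this window, upstream of the RefSeq start used. Part of the Got2 window therefore lies within the gene by that annotation, and bases further upstream were not searched. Of the 7 members that rose, described below, 5 had a match in at least 1 window (Cs, Got1, Ogdh, Pcx and Pdhb), and Got2 and Pdk1 had none. Among the members that fell, Mdh1 and Mpc2 had a match and Idh3g and Pdha1 had none. Of all 27 members with a window 16 had a match, and the share per gene over all genes was not computed. The deposited values are per gene and do not separate the Pcx starts. Among the members 27 had a RefSeq window (36 windows in all), and CCAAT, on either strand as all motifs here, stood in 19 of the 36 (52.8%) beside 33.8% of all windows. The GC box GGGCGG stood in 20 windows of 18 genes (55.6% of windows, beside 32.7% of all). The E-box CACGTG stood in 6 windows of 4 genes (16.7%, beside 6.02%). ACGTG, the core of the hypoxia response element, stood in 13 windows of 8 genes (36.1%, beside 16.6%), where each CACGTG also counts as ACGTG. The cAMP response element TGACGTCA stood in 4 windows of only 2 genes, Mdh2 and Ogdh (beside 1.55% of all). The palindromic motif of nuclear respiratory factor 1 stood in 1 (beside 3.74%). The estrogen-related receptor motif CAAGGTCA, the ETS motif CCGGAAGT and the direct repeat with a spacer of 1 base bound by PPAR receptors were in no member window, beside 1.33%, 2.88% and 0.0335% of all. Several windows of 1 gene overlap, and no match says only that these letters are not in the window.

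Arachidonic acid was compared with vehicle to ask how the pathway's messages change in organoids exposed to the fatty acid. The members went both ways. Of the 29 tested, which had a mean of at least 1 FPKM, 7 rose and 4 fell at a Benjamini-Hochberg adjusted p under 0.05 in limma, fitted over 12913 genes on log2(FPKM + 1), and 18 did not pass. Those are 24.1% and 13.8% of the tested members, beside 20.8% higher and 19.4% lower among all tested genes, so the shares were near the background in both directions. The median log2 fold change (arachidonic acid minus vehicle, with 1 added to FPKM, which understates the change of low genes) was -0.03 over the members and -0.03 over all tested genes. The groups did not overlap, with arachidonic acid above, for 9 members (31.0%, beside 27.6% of all tested genes) and, with arachidonic acid below, for 8 (27.6%, beside 27.5%). The FPKM of the 30 genes summed to 4137, 3760 and 3733 with arachidonic acid and to 3747, 3874 and 3983 with vehicle, with overlapping groups. The counts depended on scaling, at 9 higher and 2 lower after rescaling to TPM (beside 23.4% and 15.6% of all tested genes) and 6 higher and 7 lower after quantile normalization (beside 18.7% and 23.0%). The 6 genes Pcx, Got1, Got2, Pdk1, Cs and Ogdh were higher under each of 15 other settings, whereas no fall kept its call under all of them. Without arachidonic acid replicate 1 the members numbered 8 higher and 12 lower, beside 27.5% and 32.4% of all tested genes. Leaving out any other library gave 6 higher members, beside 14.1% and 13.3% of all tested genes without arachidonic acid replicates 2 and 3, and 13.3%, 14.1% and 15.1% without vehicle replicates 1, 2 and 3. The lower members then numbered 3 without arachidonic acid replicate 2 (11.3% of all), 0 without replicate 3 (10.6%), 1 without vehicle replicate 1 (9.63%), 1 without replicate 2 (10.2%) and 2 without replicate 3 (11.5%).

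**Figure D1:**
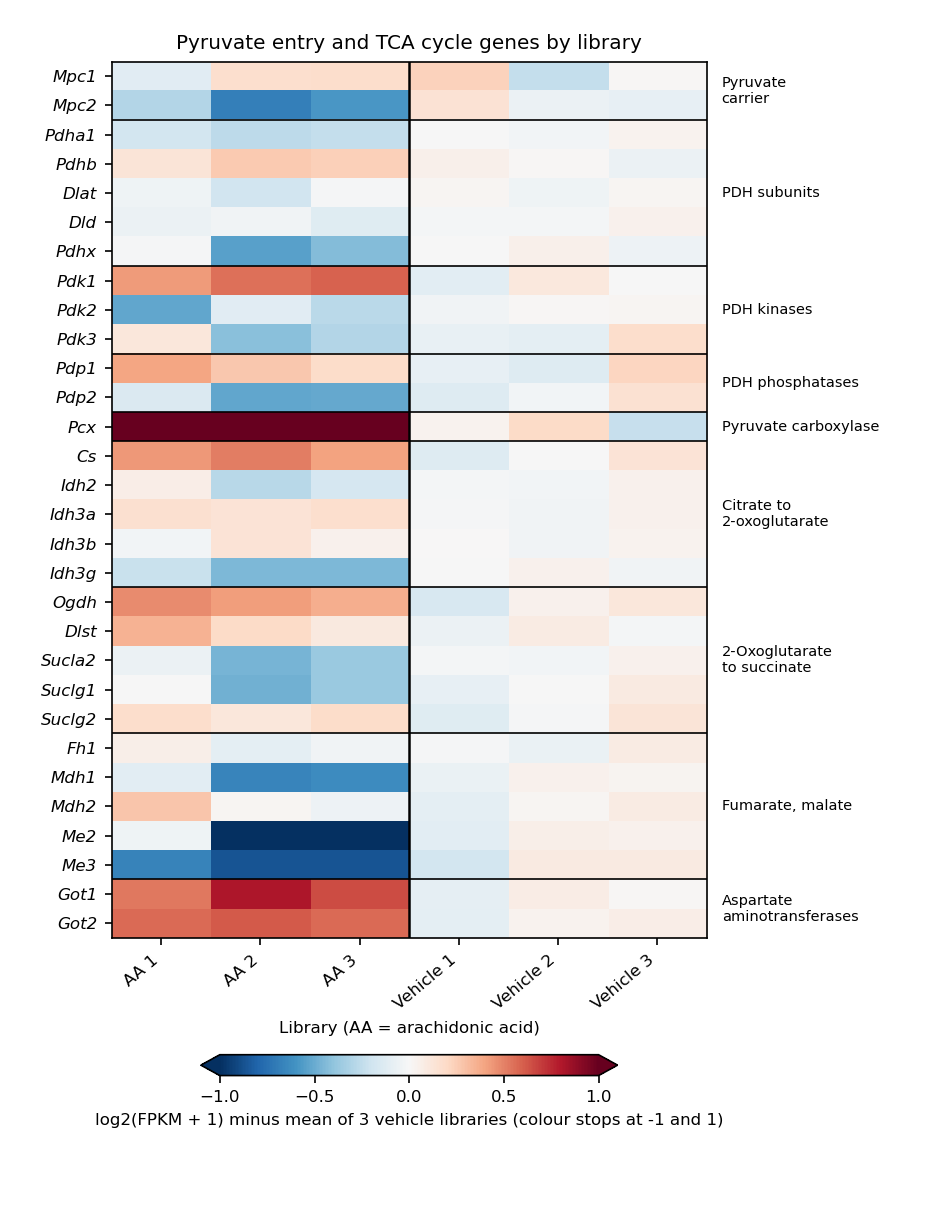
Rows are the 30 members by role and columns the 3 arachidonic acid (AA) and 3 vehicle libraries, coloured by log2(FPKM + 1) minus the mean of the vehicle libraries. Pcx, Got1, Got2, Pdk1, Cs and Ogdh are red in all 3 arachidonic acid libraries, while Me2, Mdh1, Pdhx, Sucla2 and Suclg1 are blue in replicates 2 and 3 and pale in replicate 1.

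The level of the members spanned from Mdh2, mitochondrial malate dehydrogenase, at 594 ± 73.2 FPKM with arachidonic acid and 559 ± 35.3 FPKM with vehicle (mean ± SD over 3 libraries, as for all such values), to Me3. In vehicle organoids Pdha1, Mdh1 and Idh3b followed Mdh2, and Pdp2, Pcx, Pdp1 and Me3 were lowest. Levels of different genes are compared per length, with the authors' gene lengths. Those lengths appeared to be means over each gene's annotated transcripts. The order of genes, and the shares and sizes of ratios below, therefore depend on that annotation.

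The pyruvate carrier genes gave different results. Mpc2 (ENSMUSG00000026568), a subunit of the carrier, was at 47.6, 36.1 and 38.6 FPKM with arachidonic acid and at 64.7, 56.0 and 55.3 FPKM with vehicle. Every arachidonic acid library lay below every vehicle library, and Mpc2 fell (log2 fold change -0.52, SE 0.12, limma adjusted p = 0.0145). The adjusted p was 0.0546 without arachidonic acid replicate 3 and 0.0589 without vehicle replicate 1. Mpc1, its partner, was at 10.1, 12.4 and 12.5 FPKM with arachidonic acid and 13.1, 9.16 and 11.1 FPKM with vehicle, overlapping, and did not pass (adjusted p = 0.698).

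Within the PDH complex the 2 chains of the E1 component moved in opposite directions by small amounts. Pdha1 (ENSMUSG00000031299), the E1 alpha chain that carries the regulatory phosphorylation sites, fell to 281 ± 7.69 FPKM with arachidonic acid, against 329 ± 7.33 FPKM with vehicle (log2 fold change -0.23, SE 0.06, limma adjusted p = 0.0195). Pdhb (ENSMUSG00000021748), the E1 beta chain, rose to 169, 186 and 183 FPKM with arachidonic acid, against 160.0, 156 and 149 FPKM with vehicle (log2 fold change 0.21, SE 0.06, adjusted p = 0.0390). In neither did the groups overlap. Both calls were lost without any 1 library other than arachidonic acid replicate 1, with adjusted p of 0.0590 to 0.0796 for Pdha1 and 0.0733 to 0.134 for Pdhb. Both were also lost with the replicate number as a block, at 0.0513 for Pdha1 and 0.0892 for Pdhb, and Pdha1 after rescaling to TPM (0.0520). Pdhb kept its call in 6 of 15 alternatives, as it was lost too with no filter on low values (0.0596), after quantile normalization (0.0630) and without the trend (0.0659). Dlat, the E2 acetyltransferase, was at 164 ± 10.9 FPKM with arachidonic acid and 173 ± 4.11 FPKM with vehicle and did not pass. Dld, the E3 dehydrogenase that other 2-oxoacid dehydrogenases share, was at 169.6 ± 5.25 FPKM with arachidonic acid and 178 ± 4.62 FPKM with vehicle and did not pass, although its groups did not overlap. Pdhx, the protein that anchors E3, was at 25.5, 17.3 and 18.8 FPKM with arachidonic acid and 25.6, 26.6 and 24.8 FPKM with vehicle. Replicate 1 stood at the vehicle level and the other arachidonic acid libraries below it, and the gene did not pass (log2 fold change -0.33, adjusted p = 0.103, and 0.000572 without that replicate). The 5 subunit genes summed to 823, 802 and 816 FPKM with arachidonic acid and 864, 848 and 869 FPKM with vehicle.

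Of the kinases that inactivate PDH, Pdk1 rose and the others of the list did not pass. Pdk1 (ENSMUSG00000006494) was at 143, 157 and 161 FPKM with arachidonic acid and at 99.0, 115 and 107 FPKM with vehicle, a rise of 1.44-fold in mean FPKM with no overlap (log2 fold change 0.52, SE 0.08, limma adjusted p = 0.00406). Pdk2 was at 28.2, 37.6 and 33.7 FPKM with arachidonic acid and 39.9, 41.3 and 41.3 FPKM with vehicle, lower in each library but not past the test (adjusted p = 0.0614). It passed without arachidonic acid replicate 1 (0.0369), without replicate 2 (0.0341) and after quantile normalization (0.0494). Pdk3 was at 21.2, 14.3 and 15.7 FPKM with arachidonic acid and 18.4, 18.1 and 22.1 FPKM with vehicle and did not pass (adjusted p = 0.334, and 0.0157 without arachidonic acid replicate 1). Pdk4, the fourth kinase and no member of the list, rose to 19.7 ± 4.41 FPKM with arachidonic acid, against 0.783 ± 0.423 FPKM with vehicle (log2 fold change 3.55, SE 0.22, adjusted p = 0.000415). With a vehicle mean under 1 FPKM, Pdk4 entered the test only through its arachidonic acid libraries. Of the summed FPKM of the 4 kinases, Pdk1 held 68.7% ± 2.57 with arachidonic acid and 63.6% ± 1.73 with vehicle, and Pdk4 8.86% ± 2.20 with arachidonic acid and 0.458% ± 0.231 with vehicle. Pdk2 held 14.8% ± 1.78 of it with arachidonic acid and 24.3% ± 0.913 with vehicle.

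The phosphatases that reactivate PDH were low and did not pass. Pdp1 was at 3.80, 3.42 and 3.15 FPKM with arachidonic acid and 2.46, 2.34 and 3.25 FPKM with vehicle (adjusted p = 0.137). Pdp2 was at 7.98, 5.94 and 5.96 FPKM with arachidonic acid and 8.09, 8.78 and 10.05 FPKM with vehicle (log2 fold change -0.39, adjusted p = 0.0570). The groups did not overlap for Pdp2, and it passed without arachidonic acid replicate 1 (0.00325), after quantile normalization (0.0399), with median-of-ratios scaling (0.0497) and in limma-voom on recovered fragments (0.0466).

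Pyruvate carboxylase showed the largest change of the tested members. Pcx (ENSMUSG00000024892) was at 11.3, 32.7 and 26.7 FPKM with arachidonic acid and 2.89, 3.33 and 2.23 FPKM with vehicle. Mean FPKM was 8.37-fold higher, and replicate 1 of arachidonic acid, the lowest of its group, was above each vehicle library (log2 fold change 2.57, SE 0.36, limma adjusted p = 0.00323). Over the 15 other settings the adjusted p ran up to 0.0211. Lrfn4, which GENCODE M21 places on the opposite strand with an overlap of Pcx, averaged 19.6 FPKM with arachidonic acid and 19.0 FPKM with vehicle.

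**Figure D2:**
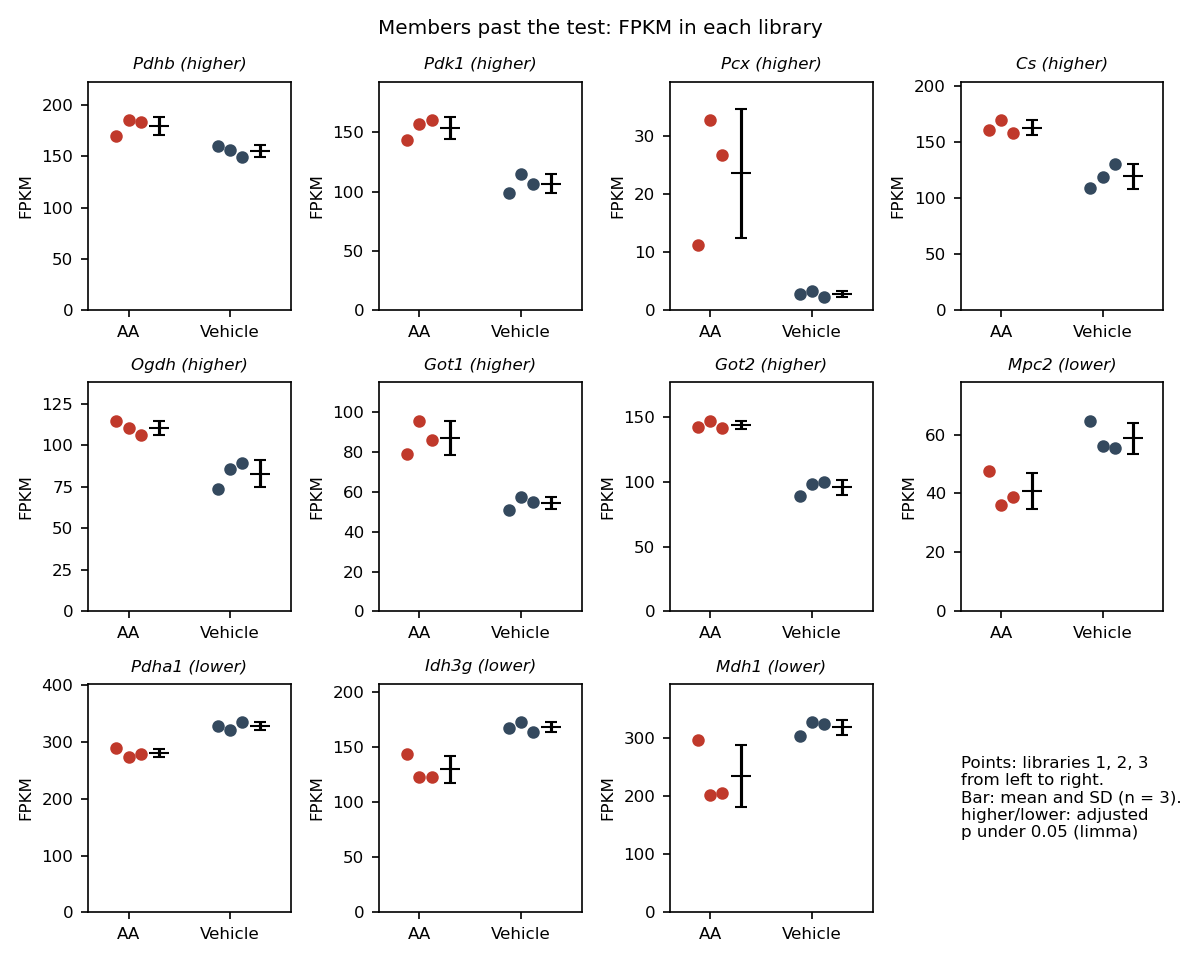
Each panel is 1 of the 11 members past the test, with FPKM in the 3 arachidonic acid (AA) libraries left of the 3 vehicle libraries and the mean with its SD beside them. No panel shows overlapping groups. For Mdh1 arachidonic acid replicate 1, at 296 FPKM, lies next to the lowest vehicle library, at 303 FPKM, and for Pcx replicate 1, at 11.3 FPKM, lies between the groups.

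At the head of the cycle citrate synthase, which joins acetyl-CoA to oxaloacetate, rose. Cs (ENSMUSG00000005683) was at 161, 170.3 and 158 FPKM with arachidonic acid and 109, 119 and 131 FPKM with vehicle (log2 fold change 0.45, SE 0.08, limma adjusted p = 0.00694), with no overlap. The NAD-dependent isocitrate dehydrogenase is built of 3 kinds of subunit, and of their genes 1 fell. Idh3g (ENSMUSG00000002010), a regulatory subunit, fell to 144, 122 and 122 FPKM with arachidonic acid, against 167, 173 and 164 FPKM with vehicle (log2 fold change -0.37, SE 0.08, adjusted p = 0.0118). The adjusted p was 0.0501 without arachidonic acid replicate 3 and 0.0518 without vehicle replicate 2. Idh3a, the catalytic subunit, was at 108 ± 1.27 FPKM with arachidonic acid and 96.7 ± 2.81 FPKM with vehicle, without overlap, and did not pass (adjusted p = 0.0583). It passed after TPM rescaling (0.0228), with median-of-ratios scaling (0.0401) and without arachidonic acid replicate 1 (0.0409). Idh3b did not pass either, at 281 ± 15.8 FPKM with arachidonic acid and 271 ± 6.74 FPKM with vehicle. It overlaps Nop56 on the opposite strand (231 FPKM with arachidonic acid and 219.9 FPKM with vehicle), to an extent that was not measured. Idh2, the mitochondrial NADP-dependent enzyme, was at 193, 152 and 164 FPKM with arachidonic acid and 182, 181 and 190.4 FPKM with vehicle and did not pass (adjusted p = 0.314, and 0.0128 without replicate 1 of arachidonic acid, which was the highest of the 6 libraries).

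From 2-oxoglutarate to succinate the E1 gene of the 2-oxoglutarate dehydrogenase complex rose and the succinyl-CoA synthetase genes did not pass. Ogdh (ENSMUSG00000020456) was at 115, 111 and 106 FPKM with arachidonic acid and 73.8, 85.4 and 89.5 FPKM with vehicle (log2 fold change 0.42, SE 0.08, limma adjusted p = 0.0102). Dlst, the E2 of the same complex, was at 179, 160.5 and 150.1 FPKM with arachidonic acid and 134, 149 and 138 FPKM with vehicle. Its groups did not overlap but it did not pass (adjusted p = 0.0795), and it passed after TPM rescaling (0.0452) and median-of-ratios scaling (0.0421). Suclg1, the shared alpha subunit of succinyl-CoA synthetase, was at 162, 116 and 125 FPKM with arachidonic acid and 153, 162 and 173 FPKM with vehicle (adjusted p = 0.117, and 0.00112 without arachidonic acid replicate 1). Sucla2, the ATP-forming beta subunit, was at 115, 86.5 and 92.5 FPKM with arachidonic acid and 118, 118 and 124 FPKM with vehicle (adjusted p = 0.0659, with 0.0360 after quantile normalization and 0.000478 without arachidonic acid replicate 1). Suclg2, the GTP-forming beta subunit, was at 138 ± 3.75 FPKM with arachidonic acid and 124 ± 10.8 FPKM with vehicle, overlapped and did not pass (adjusted p = 0.138).

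Among the genes of fumarate and malate, cytosolic Mdh1 fell and the others tested did not pass. Mdh1 (ENSMUSG00000020321), the malate dehydrogenase of the cytosolic side of the malate-aspartate shuttle, was at 296, 202 and 205 FPKM with arachidonic acid and 303, 328 and 324 FPKM with vehicle (log2 fold change -0.46, SE 0.15, limma adjusted p = 0.0460). Its call was lost without any 1 library other than arachidonic acid replicate 1 (adjusted p = 0.100 to 0.142), with no filter on low values (0.107), after TPM rescaling (0.0687), with the replicate number as a block (0.0713) and without the trend (0.0594). Me2 (ENSMUSG00000024556), the mitochondrial NAD-dependent malic enzyme that turns malate into pyruvate, was at 82.6, 31.5 and 32.3 FPKM with arachidonic acid and 78.8, 88.7 and 87.8 FPKM with vehicle. Replicate 1 lay within the vehicle range and the other arachidonic acid libraries below every vehicle library. The gene did not pass with all libraries (log2 fold change -0.94, SE 0.35, adjusted p = 0.0721), and without that replicate the log2 fold change was -1.39 (adjusted p = 1.9e-06). Me3, the mitochondrial NADP-dependent malic enzyme, was under the 1 FPKM mean and not tested, at 0.166, 0.0206 and 0.0227 FPKM with arachidonic acid and 0.639, 0.974 and 0.981 FPKM with vehicle. These values rest on 23, 2 and 3 recovered fragments with arachidonic acid and 65, 97 and 103 with vehicle, and with no filter on low values Me3 was called lower (limma adjusted p = 0.00907). Fh1, fumarase, was at 179, 161 and 168 FPKM with arachidonic acid and 171, 165 and 182 FPKM with vehicle, and Mdh2 also overlapped between the groups.

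Both aspartate aminotransferase genes, whose enzymes exchange amino groups between glutamate and oxaloacetate on either side of the mitochondrial membrane, rose. Got1 (ENSMUSG00000025190), the cytosolic enzyme, was at 78.8, 95.8 and 86.1 FPKM with arachidonic acid and 51.1, 57.3 and 54.9 FPKM with vehicle (log2 fold change 0.66, SE 0.09, limma adjusted p = 0.00276). Got2 (ENSMUSG00000031672), the mitochondrial enzyme, was at 142, 147 and 142 FPKM with arachidonic acid and 89.0, 97.8 and 100.1 FPKM with vehicle (log2 fold change 0.58, SE 0.07, adjusted p = 0.00166). Every arachidonic acid library exceeded every vehicle library for both genes, and Got2 had the smallest adjusted p of the members.

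The fit without arachidonic acid replicate 1 called 8 members higher and 12 lower, and that replicate stood differently in each direction. On the log2(FPKM + 1) scale its position was taken from 0, the vehicle mean, to 1, the mean of the other arachidonic acid libraries. Those other libraries also gave the calls, so the choice of genes by itself favours positions below 1. The medians are over genes of a single library. Over the 8 members higher it had a median position of 0.84 and lay within the vehicle range for 0 of the 8. Over the 12 lower the median position was 0.15, and it lay within the vehicle range for 4 (Pdhx, Pdk3, Suclg1 and Me2). For Idh2 it lay above that range. Over all genes called the same way the median positions were 0.60 for 3554 higher and 0.42 for 4192 lower genes, with 10.6% and 18.3% within the vehicle range. The difference between the members and other genes was not tested, and not all of the lower members were near the vehicle level in that replicate, since Pdk2 was at its lowest there.

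**Figure D3:**
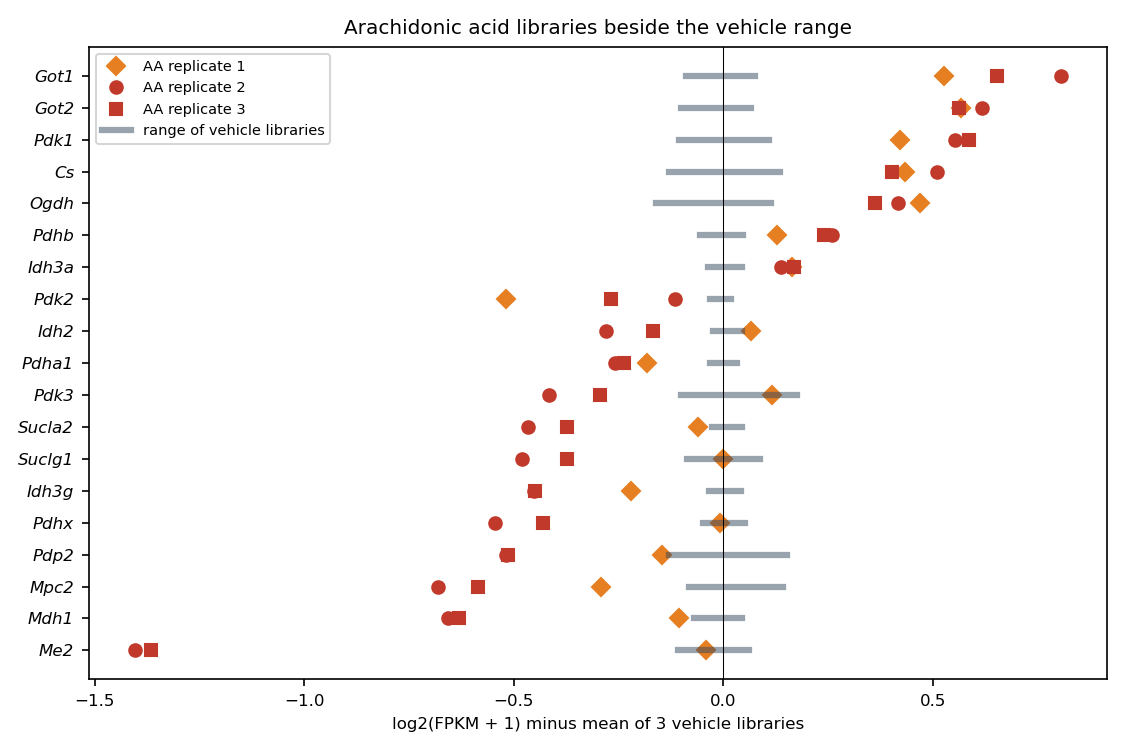
Points are the arachidonic acid (AA) libraries as log2(FPKM + 1) minus the vehicle mean, and grey bars span the vehicle libraries, for the members called without arachidonic acid replicate 1 other than Pcx, whose rise is off the scale. For Me2 replicates 2 and 3 lie near -1.4 while replicate 1 lies on the vehicle bar, whereas for Cs, Ogdh, Got1, Got2 and Pdk1 all 3 lie to the right of the bar.

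Ratios between partner genes within a library, which no scaling factor of the library changes, were compared for 10 pairs. For 8 the groups did not overlap. Each of these had an exact two-sided permutation p of 0.1, the smallest that 3 libraries against 3 can give. It was 0.125 after Benjamini-Hochberg adjustment over the 10, so none could pass 0.05. Of all tested single genes 27.6% did not overlap with arachidonic acid above and 27.5% with it below. The share among ratios of other gene pairs was not computed. Several of the ratios hold a gene already called above, so their separation is no separate result. Pdk1 to Pdk2 was 4.67 ± 0.462 with arachidonic acid and 2.62 ± 0.158 with vehicle. The 3 kinases Pdk1, Pdk2 and Pdk3 to both phosphatases stood at 16.4, 22.3 and 23.1 with arachidonic acid and 14.9, 15.7 and 12.8 with vehicle, where replicate 1 of arachidonic acid was close to the highest vehicle library. Pdha1 to Pdhb, chains that pair in the E1 component, was 1.57 ± 0.122 with arachidonic acid and 2.12 ± 0.117 with vehicle. Suclg2 to Sucla2, the GTP-forming over the ATP-forming subunit, was 1.22, 1.55 and 1.52 with arachidonic acid and 0.962, 1.04 and 1.09 with vehicle. Cytosolic Mdh1 to mitochondrial Mdh2 was 0.391 ± 0.0413 with arachidonic acid and 0.570 ± 0.0189 with vehicle. Replicate 1 of arachidonic acid, at 0.437, was below each vehicle library, but its genes stood differently from replicates 2 and 3. Its Mdh2, at 677 FPKM, was the highest of all libraries, and its Mdh1, at 296 FPKM, was near the lowest vehicle library. In replicates 2 and 3 Mdh1 was at 202 and 205 FPKM. Mdh2 was there at 566 and 539 FPKM, beside 521, 566 and 591 FPKM with vehicle. Mpc1 to Mpc2 was 0.294 ± 0.0714 with arachidonic acid and 0.189 ± 0.0217 with vehicle, with replicate 1 of arachidonic acid, at 0.212, next to the highest vehicle library at 0.202. Idh2 to Idh3a was 1.57 ± 0.187 with arachidonic acid and 1.91 ± 0.0164 with vehicle. Pcx to Pdha1 was 0.0847 ± 0.0413 with arachidonic acid and 0.00860 ± 0.00187 with vehicle. Got1 to Got2 overlapped, at 0.605 ± 0.0479 with arachidonic acid and 0.569 ± 0.0189 with vehicle (exact permutation p = 0.3), as did Pdk3 to Pdk2, at 0.533 ± 0.194 with arachidonic acid and 0.478 ± 0.0506 with vehicle (exact permutation p = 0.8).

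**Figure D4:**
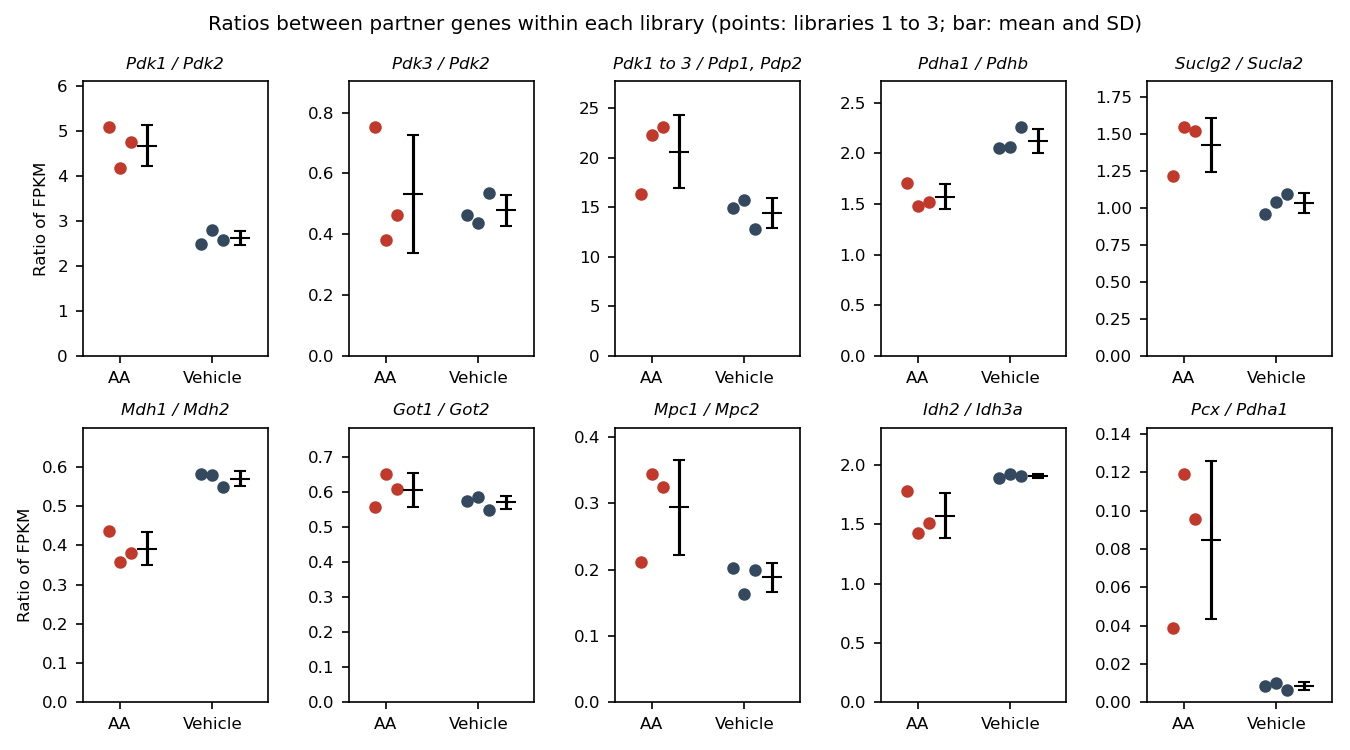
Each panel gives the ratio of FPKM of 2 partner genes, or of the kinases Pdk1, Pdk2 and Pdk3 to the phosphatases, in the 3 arachidonic acid (AA) libraries, left, and the 3 vehicle libraries, right, with mean and SD. The groups do not overlap except for Pdk3 to Pdk2 and Got1 to Got2. The Mdh1 to Mdh2 ratio is 0.391 with arachidonic acid and 0.570 with vehicle.

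Succinate dehydrogenase, which turns succinate into fumarate, was outside the list. Of its 8 subunit and assembly factor genes 0 rose, 3 fell and 5 did not pass in limma (median log2 fold change -0.27, beside -0.03 and a share of 19.4% lower over all tested genes). The genes that fell were Sdha, the flavoprotein subunit (749 ± 92.8 FPKM with arachidonic acid and 923 ± 38.5 FPKM with vehicle), Sdhd, a membrane anchor (207 ± 35.9 FPKM with arachidonic acid and 266 ± 4.93 FPKM with vehicle), and Sdhaf3, an assembly factor (3.19 ± 0.214 FPKM with arachidonic acid and 4.59 ± 0.516 FPKM with vehicle). Without arachidonic acid replicate 1, 6 fell (beside 32.4% of all tested genes), and without any other 1 library 0 fell, except for 1 without vehicle replicate 3 (beside 9.63% to 11.5% of all). The limma adjusted p without such a library was 0.0920 to 0.149 for Sdha and 0.104 to 0.138 for Sdhd. With the replicate number as a block all 3 calls were lost (0.0808 for Sdha, 0.0545 for Sdhd and 0.0533 for Sdhaf3), as they were with no filter on low values (0.123 for Sdha, 0.0965 for Sdhd and 0.0853 for Sdhaf3). The calls of Sdha and Sdhd were also lost after TPM rescaling (0.0854 and 0.0685) and without the trend (0.0587 and 0.0581), and that of Sdha after quantile normalization (0.122).

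Of 11 tested genes of PDH regulation and of the lipoic acid that its E2 carries, 3 rose and 6 fell (median log2 fold change -0.21), beside 20.8% higher and 19.4% lower among all tested genes. Pdk4, at a mean under 1 FPKM with vehicle, was tested for its values with arachidonic acid. Besides Pdk4 the smallest p-values belonged to Lipt2, Bola3 and Nfu1. Lipt2, the octanoyl transferase of lipoic acid synthesis, fell to 4.42 ± 1.09 FPKM, against 8.44 ± 0.694 FPKM with vehicle (log2 fold change -0.82, limma adjusted p = 0.00810). Bola3 and Nfu1 serve iron-sulfur cluster delivery. Bola3 fell to 56.4 ± 9.83 FPKM, against 82.2 ± 7.09 FPKM with vehicle, and Nfu1 to 60.3 ± 0.630 FPKM, against 73.0 ± 4.61 FPKM with vehicle. Both calls were lost without arachidonic acid replicate 2 or 3 and without vehicle replicate 1 or 3 (adjusted p = 0.0528 to 0.0734). The other genes past the test, named after their values were seen, went both ways. Lias, the lipoyl synthase (33.2 FPKM with arachidonic acid and 29.1 FPKM with vehicle, limma adjusted p = 0.0492), and Iba57 (0.0315) rose. Lipt1, Isca1 and Isca2 fell. The list had 3 higher and 6 lower genes without arachidonic acid replicate 1 (27.5% and 32.4% of all tested genes), but 1 or 2 higher and 1 to 3 lower without any other library (13.3% to 15.1% and 9.63% to 11.5% of all). The lower genes numbered 3 after TPM rescaling and 3 with no filter.

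Cytosolic enzymes and mitochondrial carriers numbered 5 higher and 1 lower of 12 tested (median 0.11, beside 20.8% higher and 19.4% lower among all tested genes), with 5 higher and 1 or 2 lower whichever library was left out. Me1, the cytosolic malic enzyme, rose to 132 ± 17.4 FPKM with arachidonic acid, against 10.8 ± 1.54 FPKM with vehicle (log2 fold change 3.49, limma adjusted p = 8.2e-05), beside the lower Me2 in replicates 2 and 3 and the low Me3. Idh1, the cytosolic isocitrate dehydrogenase, rose to 573 ± 192 FPKM, against 197 ± 8.75 FPKM with vehicle. Slc25a10, the dicarboxylate carrier, rose to 201 ± 38.3 FPKM, against 100.2 ± 3.77 FPKM with vehicle, and Slc25a12, an aspartate-glutamate carrier of the malate-aspartate shuttle, to 36.5 ± 0.931 FPKM, against 26.0 ± 1.08 FPKM with vehicle. The gene that fell, named after its values were seen, was Acly, which splits cytosolic citrate, at a log2 fold change of -0.50.

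Of 12 tested genes that feed or drain the cycle 1 rose and 2 fell (median 0.14), beside 20.8% higher and 19.4% lower among all tested genes. Gpt, an alanine aminotransferase, rose to 17.5 ± 2.31 FPKM with arachidonic acid, against 11.8 ± 0.912 FPKM with vehicle. Pccb, a subunit of propionyl-CoA carboxylase, fell to 62.9 ± 16.6 FPKM, against 142 ± 9.86 FPKM with vehicle (log2 fold change -1.19, limma adjusted p = 0.00341), and Mcee, the epimerase after it, to 45.1 ± 6.42 FPKM, against 66.5 ± 7.59 FPKM with vehicle. The call of Mcee was lost without vehicle replicate 1 (adjusted p = 0.0671) or 2 (0.0619). Without arachidonic acid replicate 1, 6 rose and 3 fell (beside 27.5% and 32.4% of all tested genes), while 3 rose after TPM rescaling and 2 with the replicate number as a block or median-of-ratios scaling.

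Upstream of pyruvate, 15 of 18 genes from glucose uptake to lactate export rose and 1 fell (median 0.98), beside 20.8% higher and 19.4% lower among all tested genes. Whichever library was left out, 12 to 15 rose, beside 13.3% to 27.5% of all tested genes. Pgam1, phosphoglycerate mutase, rose to 297 ± 15.0 FPKM with arachidonic acid, against 189 ± 10.4 FPKM with vehicle, and Pfkl, a phosphofructokinase, to 496 ± 12.8 FPKM, against 287 ± 32.7 FPKM with vehicle. Slc16a1, a carrier of lactate and pyruvate, rose to 44.6 ± 3.33 FPKM, against 28.2 ± 1.71 FPKM with vehicle. Pfkm, another phosphofructokinase, was the gene that fell, to 16.3 ± 0.211 FPKM, against 23.7 ± 0.810 FPKM with vehicle. Ldhb and Gapdh, named after their values were seen, did not pass, and Gapdh varied widely within groups, at 283 ± 169 FPKM with arachidonic acid and 83.8 ± 92.5 FPKM with vehicle.

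**Figure D5:**
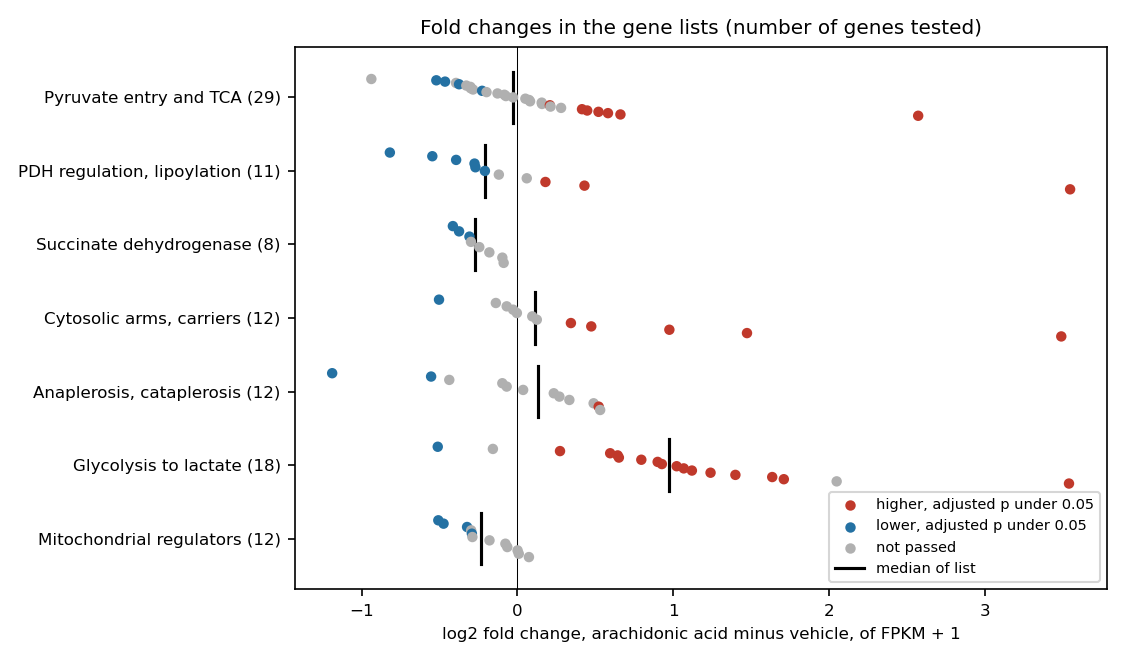
Each point is a tested gene, placed by its log2 fold change of arachidonic acid minus vehicle and coloured by its call, with a bar at the median of each list. The 18 glycolysis genes lie mostly right of 0 with a median of 0.98, while the 29 pyruvate entry and TCA cycle genes lie around 0 with a median of -0.03.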

How the data were processed

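RNA of mouse organoids was sequenced as 3 arachidonic acid and 3 vehicle libraries. The deposited values were FPKM made by the authors, as inferred from the values. The tools named, per the submitters' processing notes, were featureCounts 1.5.0-p3, HISAT2 2.0.5 and StringTie 1.3.3b, without their roles. No source used here gives the build, annotation or strand setting, so overlapping and near-identical genes are uncertain, and coordinates are printed only for promoter windows, as RefSeq gives them. Genes that overlap a member were found in GENCODE M21. FPKM times mean transcript length (GENCODE M21) fell within 0.1 of whole multiples of 1 step per library for 96.3% to 96.8% of values under 100 fragments, which gave the depth and recovered fragments.

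Of 53953 rows 53465 carried Ensembl identifiers and 53274 a symbol. Genes averaging 1 FPKM or more were fitted as log2(FPKM + 1) by group in limma 3.58.1 (R 4.3.3, trend, two-sided, Benjamini-Hochberg over all tested genes, threshold 0.05), after the script was tested on simulated data. Ratios were compared by exact permutation in scipy 1.17.1. All 30 members are accounted for. Of the 6 other lists up to 4 genes with the smallest p past the threshold, and Pdk4 and Me1, are named. A gene of these lists and a cell type marker are not reported here. Members and lists were chosen with earlier results of these data known. Promoter sequences are from RefSeq, GRCm38.p6. The alternatives tried were no filter, a mean of at least 5 FPKM, a pseudocount of 0.1, quantile, TPM and median-of-ratios scaling, no trend, the replicate number as a block, each library left out and, added after seeing the data, limma-voom on recovered fragments. For the ratios the alternatives were quantile normalization, a pseudocount of 1, the block and each library left out.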

Additional observations from a re-analysis of the deposited data

How the results depend on the processing

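Of the 11 calls among members, Pcx, Got1, Got2, Pdk1, Cs and Ogdh kept theirs under all 15 alternatives. The number of members higher stayed within 1.5 times of 7 under each alternative. The number lower, 4 with the settings reported, was 7 after quantile normalization, 2 after TPM rescaling, 2 with the replicate block and 0 to 12 with 1 library left out. Over all tested genes the higher numbered 1712 to 3554 and the lower 1245 to 4192 with 1 library left out. Signs of changes that were not called turned for Fh1 after TPM rescaling (log2 fold change 0.032) and with 1 library left out (-0.069 to 0.012), as for Mdh2 (-0.016, without arachidonic acid replicate 1, to 0.148) and Mpc1 (-0.044, without vehicle replicate 2, to 0.191). The log2 ratio of Pdk3 to Pdk2 ran from -0.18 to 0.31 with 1 library left out, the lowest without arachidonic acid replicate 1. The other 9 ratios kept their direction under each alternative that could move it. The replicate block cannot move a mean difference in this balanced design (0.83 for Pdk1 to Pdk2), and its exact sign-flip p of 0.25 is the smallest that 3 pairs can give. The cause was not tested for any of these. The labels do not say that shared replicate numbers pair the libraries, and libraries with the same number had correlations of their deviations of -0.0811, 0.210 and -0.0623 over genes. Library scaling moved the median of all tested genes by under 0.1 log2 units, to 0.03 after TPM rescaling and -0.06 after quantile normalization, from -0.03. Depth limits Me3, with 2 and 3 fragments in single arachidonic acid libraries.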

Other observations

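Of 12 regulators of mitochondrial gene expression 0 rose, 4 fell and 8 did not pass in limma (median log2 fold change -0.23, beside -0.03 and a share of 19.4% lower over all tested genes). Polrmt, the mitochondrial RNA polymerase, fell to 19.9 ± 2.06 FPKM with arachidonic acid, against 28.0 ± 0.165 FPKM with vehicle (SD, n = 3 libraries each; log2 fold change -0.47, SE 0.09, limma adjusted p = 0.00733), and its call held under all 15 alternatives. Twnk, the mitochondrial DNA helicase, fell to 10.6 ± 0.666 FPKM, against 13.5 ± 0.0761 FPKM with vehicle, Esrra, the estrogen-related receptor alpha, to 284 ± 13.4 FPKM, against 348 ± 28.3 FPKM with vehicle, and Tfam, which packages mitochondrial DNA, to 51.1 ± 10.9 FPKM, against 72.0 ± 2.86 FPKM with vehicle. These 3 calls were each lost in several fits that left out 1 library, with adjusted p up to 0.0927 for Esrra, 0.0944 for Tfam and 0.0613 for Twnk. The call of Twnk was also lost with the replicate number as a block (0.0502), and those of Esrra (0.0565) and Tfam (0.0682) with no filter on low values. The list had 6 lower genes without arachidonic acid replicate 1 (beside 32.4% of all tested genes) and 1 or 2 without any other library (beside 9.63% to 11.5%), with 0 higher in each. Ppargc1a, the coactivator PGC-1 alpha, chosen after values were seen, did not pass (2.98 ± 0.330 FPKM with arachidonic acid and 2.97 ± 0.121 FPKM with vehicle). The share of fragments from the mitochondrial genome was lower in each arachidonic acid library, at 2.62%, 2.38% and 2.18%, than in each vehicle library, at 3.44%, 4.10% and 3.12%.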
